A study of Mus musculus with 8 samples.

Results

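The peaks described here are those at 14 families of tandemly duplicated genes. The families are Prl, Psg, Ceacam, Serpin, Spink, Cts, Klk, Defa, Defb, Reg, Muc, Scgb, Mup and Skint. They include genes for secreted proteins, proteases and protease inhibitors, while Skint and some Ceacam genes encode membrane proteins. A peak was taken when the name of its closest gene within 5 kb, as the authors annotated it, began with 1 of these family names. The choice went by gene name and used no measured value, though earlier results of these data were known when it was made. It gave 135 of the 53761 H3K9me3 peaks of the series, at 56 of the 5543 genes that are the closest gene of a peak. Colon crypts came from C57BL/6 mice that were either WT or had *Smarcad1* deleted through *Vil-cre* (KO), and H3K9me3 was measured in 3 ChIP-seq libraries per genotype, with 1 library of input DNA (chromatin before immunoprecipitation) per genotype. *Vil-cre* is driven by the *Vil1* promoter, which is active in the intestinal epithelium, so other cells in the whole crypt isolate keep *Smarcad1*, and the KO mice descend from 1 targeted line. The mice were male per the study's methods, their age is not given in the sources used here, and no other treatment was described for either group.

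H3K9me3 is the trimethylation of lysine 9 of histone H3, a mark of heterochromatin that is laid down by histone methyltransferases and bound by HP1 proteins, and it is known for silencing repeats and some clustered gene families. *Smarcad1* encodes a chromatin remodelling ATPase that has been linked to the upkeep of such chromatin. Many genes of these families are used mainly in organs other than the colon. Prolactin relatives, pregnancy-specific glycoproteins and a group of cathepsins are products of the placenta, major urinary proteins of the liver and glands, many beta-defensins of the epididymis, and Skint proteins of skin and thymus. Mucins, Reg lectins and some Ceacam and serpin genes are products of gut epithelium.

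Of the 135 members, 126 lay within 1 Mb of another member. The DNA under the peaks differed in how much of it was repeat. The following stretches of 300 bases are shown because the results turn on them or because they mark the ends of that range. They are read from GRCm38 on the plus strand, and capitals mark bases outside the repeats that are soft-masked in the RefSeq sequence. The centres of the pair of peaks with an adjusted p under 0.05 lie at chr7:18076576-18076875, in an intron of *Ceacam12*, and at chr4:61825726-61826025, in no GENCODE gene, downstream of *Mup5*.
Ceacam12 1: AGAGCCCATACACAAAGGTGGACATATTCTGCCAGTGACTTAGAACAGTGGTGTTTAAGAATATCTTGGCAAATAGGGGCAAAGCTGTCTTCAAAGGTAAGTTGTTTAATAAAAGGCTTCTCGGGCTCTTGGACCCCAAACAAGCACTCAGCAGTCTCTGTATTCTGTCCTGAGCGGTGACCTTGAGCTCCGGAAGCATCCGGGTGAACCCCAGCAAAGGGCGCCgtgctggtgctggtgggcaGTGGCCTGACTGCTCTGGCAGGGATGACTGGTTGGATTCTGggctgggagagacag
Mup5 1: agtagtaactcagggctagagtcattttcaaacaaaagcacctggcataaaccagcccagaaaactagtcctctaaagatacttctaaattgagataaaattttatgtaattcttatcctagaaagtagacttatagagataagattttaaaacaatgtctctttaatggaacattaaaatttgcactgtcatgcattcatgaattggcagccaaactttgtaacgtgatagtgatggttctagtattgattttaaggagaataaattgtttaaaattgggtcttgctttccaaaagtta
Both Skint peaks below lie in introns of *Skint5*. Skint5 28 (chr4:113868451-113868750) had the highest WT level per kb of all members, a level that is higher in peaks of this width, and Skint5 12 (chr4:113643301-113643600) had no soft-masked base.
Skint5 28: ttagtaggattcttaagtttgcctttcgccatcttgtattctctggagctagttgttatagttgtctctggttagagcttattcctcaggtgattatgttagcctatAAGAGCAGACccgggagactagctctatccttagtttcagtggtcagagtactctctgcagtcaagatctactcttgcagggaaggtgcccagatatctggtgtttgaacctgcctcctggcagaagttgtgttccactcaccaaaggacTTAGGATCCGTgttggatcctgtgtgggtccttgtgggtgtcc
Skint5 12: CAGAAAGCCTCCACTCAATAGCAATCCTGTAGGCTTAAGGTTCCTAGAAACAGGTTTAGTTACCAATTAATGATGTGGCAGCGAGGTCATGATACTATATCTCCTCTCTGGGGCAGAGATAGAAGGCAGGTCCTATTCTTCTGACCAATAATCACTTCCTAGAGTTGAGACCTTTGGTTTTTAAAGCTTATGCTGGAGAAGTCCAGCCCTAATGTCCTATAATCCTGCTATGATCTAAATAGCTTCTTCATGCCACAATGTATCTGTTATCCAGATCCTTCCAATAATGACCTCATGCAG
The last pair marks how far short reads can be told apart at these genes. Of the 32-base words of Psg23 2 (chr7:18602101-18602400, downstream of *Psg23*), 27.5% occur once in the genome, the lowest share among the members, whereas every word of Defb41 2 (chr1:18256501-18256800, in an intron of *Defb41*) occurs once.
Psg23 2: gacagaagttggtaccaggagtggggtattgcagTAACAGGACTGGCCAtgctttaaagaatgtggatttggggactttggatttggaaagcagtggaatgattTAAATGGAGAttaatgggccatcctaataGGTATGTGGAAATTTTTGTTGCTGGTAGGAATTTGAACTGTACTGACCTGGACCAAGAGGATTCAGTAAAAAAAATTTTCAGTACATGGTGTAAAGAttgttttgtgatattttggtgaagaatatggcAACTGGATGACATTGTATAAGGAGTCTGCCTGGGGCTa
Defb41 2: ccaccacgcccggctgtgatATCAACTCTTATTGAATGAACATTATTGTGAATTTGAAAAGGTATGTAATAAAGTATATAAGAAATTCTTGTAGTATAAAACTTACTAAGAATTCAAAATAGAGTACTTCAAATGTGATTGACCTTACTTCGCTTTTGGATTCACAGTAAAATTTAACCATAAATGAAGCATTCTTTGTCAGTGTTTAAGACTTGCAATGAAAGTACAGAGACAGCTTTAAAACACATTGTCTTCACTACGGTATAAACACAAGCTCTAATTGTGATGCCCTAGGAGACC

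In these names the number counts a gene's peaks by position along the chromosome. Values are log2 read counts per peak as deposited, after the authors had given the 6 ChIP libraries 1 common distribution. A shift shared by most peaks could not be seen after this step. Counts behind the values were small: the ChIP libraries held a median of 14 to 20 reads per peak over all peaks and over the members alike, 10 and 9 reads per peak in the WT and KO inputs over all peaks, and 9 and 8 over the members. Across all peaks, Pearson's r was 0.821 to 0.860 between libraries of the same genotype and 0.800 to 0.826 between genotypes. *Smarcad1* itself has 0 peaks in the table, so the deletion could not be checked from it. The peak at *Vil1* was higher in KO by 5.68 (log2, adjusted p = 1.24e-35) and that at *Mt1* by 6.69 (adjusted p = 6.17e-33), by limma, and their input reads were higher too, with 1111 reads in the KO input against 133 in the WT input at *Vil1* and 127 against 23 at *Mt1*. No member lies at either gene. Cell type markers could not be checked, since only H3K9me3 was measured here.

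The Skint genes held 71 of the 135 peaks, at 8 of their 11 GENCODE genes, and the other families followed far behind. There were 15 peaks at 12 of 43 Defb genes, 12 at 6 of 26 Cts genes, 10 at 8 of 68 Serpin genes, 9 at 7 of 13 Psg genes and 8 at 6 of 16 Ceacam genes. The remaining families held 3 peaks (Mup, at 3 of 22 genes, and Spink, at 2 of 13) or 1 peak (Prl, Klk and Reg among them). None of the peaks used here had a Muc or Scgb gene as its closest gene, out of 13 and 69 genes. Of 31 family members well known from intestinal epithelium, 3 had a peak: *Ceacam20*, a membrane protein of microvilli, *Ctse*, an aspartic protease, and *Reg1*, a secreted lectin. Of 9 placental cathepsins, 5 had one, with 11 peaks in all. Both lists were drawn up by hand from known expression, and their shares were not tested against each other or against the families.

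WT levels were compared between families per kb of peak, as the log2 read count less the log2 width in kb. This level still went with width, with a median of 4.51 for members of 300 bp and 3.97 to 4.00 for wider classes, beside 4.48 and 3.92 to 3.99 over all peaks. Its part in the order of the families was not tested. The median level per kb over all members was 4.05 ± 0.02 in WT (mean ± SD of the medians of the 3 libraries), against 4.00 ± 0.00 over all peaks. Among families with at least 8 peaks it was highest for Serpin (4.24 ± 0.08), followed by Psg (4.19 ± 0.09), Ceacam (4.12 ± 0.09), Defb (4.12 ± 0.10), Skint (3.98 ± 0.05) and Cts (3.95 ± 0.04). Neighbours in this order differed by less than the sum of their spreads, and the order is a description with no test. Families with fewer peaks lay between 3.89 ± 0.74 (Reg) and 4.23 ± 0.22 (Klk). In KO the same medians were 4.01 ± 0.14 for Serpin, 4.20 ± 0.17 for Psg, 3.93 ± 0.15 for Ceacam, 3.97 ± 0.07 for Defb, 4.01 ± 0.04 for Skint and 3.94 ± 0.04 for Cts. WT ChIP values exceeded those of the unscaled WT input by a median of 0.84 ± 0.00 (log2) over the members and 0.82 ± 0.02 over all peaks, and by 0.63 ± 0.14 for Cts up to 1.03 ± 0.12 for Psg among families with at least 8 peaks.

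**Figure D1:**
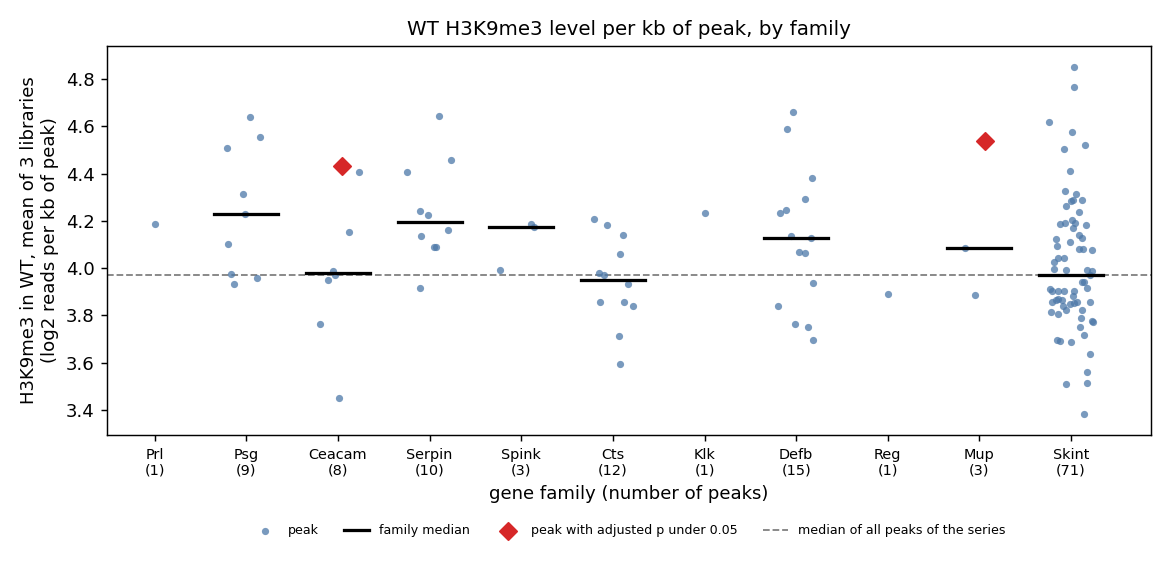
H3K9me3 level in WT by family, in log2 reads per kb of peak (vertical axis), with 1 point per peak (mean of the 3 WT libraries; 1 member is not drawn), a black line at the median of these points for families with more than 1 peak, and a dashed line at the median of all peaks of the series. Points run from 3.38 to 4.85, and every family with at least 8 peaks has points on both sides of the dashed line.

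Of the 135 peaks, 2 passed an adjusted p under 0.05 in limma, both lower in KO. They lie at *Mup5* and *Ceacam12*. Over all 53761 peaks 892 passed, which is 1.66%, and among the 15680 peaks with a closest gene, the set that members come from, 612 passed, which is 3.9%. The members' share was 1.48%, near the first and below the second, and the difference was not tested. By direction, 0.863% of all peaks were decreased and 0.796% increased, against 1.42% and 2.49% of peaks with a closest gene. Without adjustment, 8 members had p under 0.05, or 5.93%, beside 10.6% of all peaks and 15.5% of peaks with a closest gene. The 3 KO values all lay outside the range of the 3 WT values at 18 members (10 below, beside 8.42% of all peaks, and 8 above, beside 7.2%), which is 13.3% of members beside 15.6% of all peaks and 20.0% of peaks with a closest gene in either direction. The median log2 difference, KO minus WT, was -0.07 over the members, 0.00 over all peaks and -0.02 over peaks with a closest gene. The difference was below 0 at 78 members (57.8%), at 49.7% of all peaks and at 52.3% of peaks with a closest gene. Outside Skint, 42 of 64 members were below 0 with a median of -0.11, and among Skint peaks 36 of 71 were below 0 with a median of -0.00. The 95% confidence interval stayed within 1 log2 unit of 0 at 81 members (60.0%, beside 66.6% of all peaks), and reached past that size at the others.

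**Figure D2:**
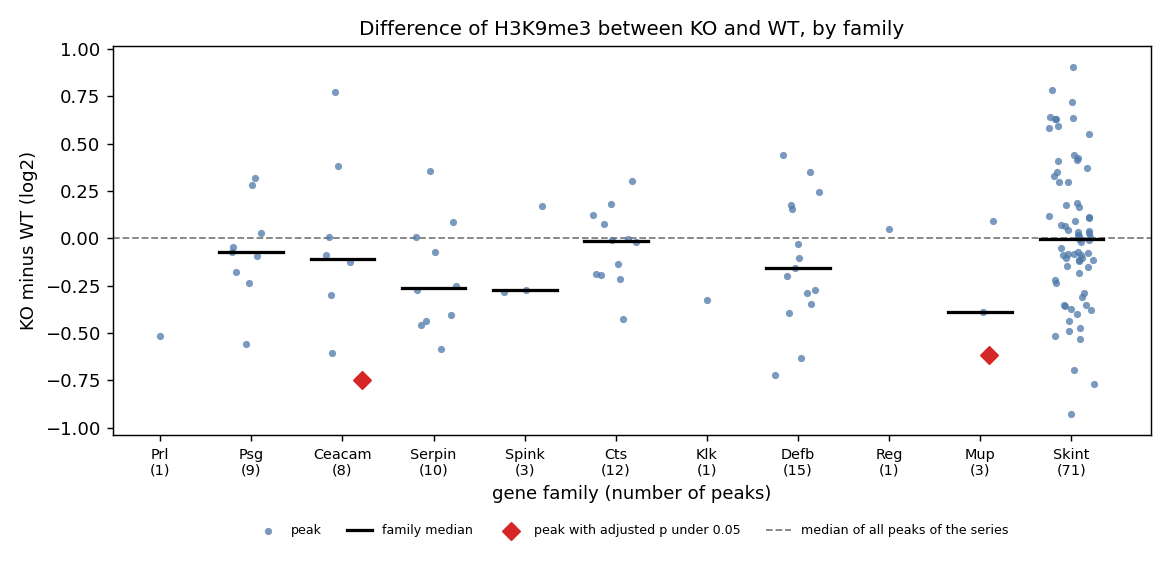
Log2 difference of H3K9me3, KO minus WT (vertical axis), with 1 point per peak grouped by family (1 member is not drawn), red diamonds for the peaks with an adjusted p under 0.05, black lines for family medians and a dashed line for the median of all peaks. Points of the Skint genes lie on both sides of 0, from -0.93 to 0.91, and both diamonds, at -0.62 and -0.75, lie below it.

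At Prl, Psg and Ceacam genes, many of which but not all (*Ceacam20*, for example) are used in the placenta, 1 of 18 peaks passed the test, and the median difference was -0.09. *Ceacam12* belongs to the mouse Ceacam genes of the placenta, which encode immunoglobulin-like proteins. Its peak Ceacam12 1 (chr7:18075301-18078150, 2850 bp) covers the 3′ end of the gene, with exon and intron, and also lies within the antisense gene *Gm44613*. Its values were 6.13, 5.93 and 5.77 in the WT libraries and 5.09, 5.23 and 5.26 in the KO libraries. All KO values lay below all WT values, at 28, 38 and 40 reads against 61, 68 and 62 in WT. The means were 5.94 ± 0.18 in WT and 5.19 ± 0.09 in KO (SD, n = 3), a log2 difference of -0.75 (95% confidence interval -1.12 to -0.38, limma adjusted p = 0.0133). The inputs held 31 reads in WT and 35 in KO. This call rests on few libraries, since the adjusted p rose to 0.147 without WT replicate 1, 0.0652 without WT replicate 2 and 0.0585 without KO replicate 1, and it was 0.343 with 1 variance prior for all levels. The adjoining peak Ceacam12 2, of the same width and just past the gene, had values of 5.26, 5.56 and 6.17 in the WT libraries and 5.33, 5.42 and 5.34 in the KO libraries. Here the groups overlapped, and the difference was -0.30 (95% confidence interval -0.70 to 0.10, limma adjusted p = 0.643). The peaks also differ in sequence, with 9.12% of bases soft-masked in Ceacam12 1 and 80.9% in Ceacam12 2.

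No other peak of this group passed. Ceacam2 1, in an intron of *Ceacam2*, a relative of the adhesion molecule *Ceacam1*, was among the 8 with an unadjusted p under 0.05 (limma) and is named after its values were seen, with an adjusted p of 0.337. Its values were 4.35, 5.32 and 5.08 in the WT libraries and 4.43, 4.54 and 3.95 in the KO libraries, so the groups overlapped. Ceacam14 2, downstream of another placental Ceacam gene, had the largest increase of the family, at 0.77 (95% confidence interval -0.16 to 1.71, limma adjusted p = 0.596). WT replicate 1 stood low there, with 1.40 against 3.04 and 3.71 in the other WT libraries. The Psg genes encode glycoproteins that trophoblast secretes during pregnancy. Their 9 peaks differed by -0.56 (Psg21 1) to 0.32 with a median of -0.07. Psg20 2, the widest of them at 1950 bp, was at 5.17, 4.96 and 5.45 in the WT libraries and 5.03, 5.36 and 4.97 in the KO libraries, and the groups overlapped. The only prolactin-family peak, downstream of *Prl8a8*, was at 4.09, 4.31 and 4.38 in the WT libraries and 3.42, 4.03 and 3.77 in the KO libraries. All its KO values were below all WT values, but with a difference of -0.51 (95% confidence interval -1.11 to 0.08, limma adjusted p = 0.569).

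Among protease inhibitors (Serpin and Spink), 0 of 13 peaks passed, with 0 at an unadjusted p under 0.05 by limma and 0 in limma voom on recovered reads, which did not test Serpinb6c 1. Differences at 9 of them were below 0, with a median of -0.27. *Serpinb6c* encodes an intracellular serpin, and its peak was the widest of the family at 4650 bp. The values were 6.35, 6.54 and 6.03 in the WT libraries and 6.18, 5.92 and 6.07 in the KO libraries. They overlapped and differed by -0.25 (95% confidence interval -0.58 to 0.07, limma adjusted p = 0.627), and the inputs held 49 reads in WT and 27 in KO. *Serpina3m*, of the antichymotrypsin-like serpins, held the largest difference of the family, -0.58 (95% confidence interval -1.27 to 0.11, limma adjusted p = 0.584). The 3 peaks of *Serpina9*, a serpin of B cells, lay between -0.07 and 0.08. *Serpina6*, which encodes the corticosteroid-binding globulin of plasma, was at -0.44 (adjusted p = 0.637, limma), and *Serpini1*, which encodes neuroserpin, at -0.27 (adjusted p = 0.734). Spink genes encode small inhibitors of trypsin-like proteases. Their 3 peaks, at *Spink2* and *Spink13*, lay between -0.28 and 0.17, with groups that overlapped.

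Among proteases (Cts and Klk), 0 of 13 peaks passed, with 0 at an unadjusted p under 0.05 by limma and 0 in limma voom on recovered reads. Of the 12 cathepsin peaks, 11 lie at 5 placental cathepsin genes on chromosome 13 (*Cts3*, *Cts6*, *Cts8*, *Ctsm* and *Ctsr*), whose cysteine proteases work in trophoblast. None of the 12 overlaps its gene, with 8 upstream and 4 downstream. The region from the first to the last of those on chromosome 13 (chr13:61156801-61576650) held 40 peaks in all, or 95.3 per Mb against 20.3 per Mb over the genome, and none of the 40 passed the test. Cts3 2, the widest cathepsin peak at 5250 bp, was at 6.08, 6.02 and 5.87 in the WT libraries and 6.25, 6.40 and 5.86 in the KO libraries. The KO values spanned those of WT, and the difference was 0.18 (95% confidence interval -0.15 to 0.51, limma adjusted p = 0.775). Ctsm 1 had the highest WT count level of the family, at 6.20, 6.32 and 5.97 in the WT libraries and 6.08, 5.99 and 6.39 in the KO libraries, with a difference of -0.01 (95% confidence interval -0.33 to 0.31, limma adjusted p = 0.992). Over this pair, the bound farthest from 0 was 0.51. The largest difference among cathepsins was at Cts3 1, -0.43 (95% confidence interval -1.11 to 0.25, limma adjusted p = 0.724). *Ctse* on chromosome 1 is the only one outside the cluster. Its values, 4.27, 4.31 and 4.19 in the WT libraries and 3.95, 4.12 and 4.04 in the KO libraries, did not overlap, with a difference of -0.22 (95% confidence interval -0.77 to 0.34, limma adjusted p = 0.856). Klk13 1, over exon and intron of a kallikrein-related serine protease gene, was at -0.33 (adjusted p = 0.693, limma).

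Among host defence genes, 0 of 15 Defb peaks and 0 of 1 Reg peak passed, with 1 at an unadjusted p under 0.05 by limma and 0 in limma voom on recovered reads. Beta-defensins are small cationic antimicrobial peptides. Their 15 peaks had a median difference of -0.16, with 10 below 0 and 5 above. *Defb4*, a defensin that epithelia make under microbial stimulation, held the largest. Defb4 1 (chr8:19201351-19202700, over exon and intron) was at 5.07, 4.84 and 4.12 in the WT libraries and 4.06, 4.03 and 3.77 in the KO libraries. The groups did not overlap, though WT replicate 3 lay just above the highest KO value. The difference was -0.72 (95% confidence interval -1.27 to -0.17, limma adjusted p = 0.249). On the same chromosome, Defb39 1, the widest Defb peak at 3600 bp, had a difference above 0. It was at 5.46, 5.53 and 5.65 in the WT libraries and 5.71, 5.85 and 5.81 in the KO libraries, again without overlap, and differed by 0.24 (95% confidence interval -0.11 to 0.60, limma adjusted p = 0.687). Defb23 1 is the only member over the start of its gene, and it differed by -0.16 (95% confidence interval -0.78 to 0.47, limma adjusted p = 0.92). Reg1 1, upstream of *Reg1*, was at 3.65, 5.08 and 4.70 in the WT libraries and 4.34, 4.95 and 4.28 in the KO libraries. WT replicate 1 was the lowest of all 6, and the difference was 0.05 (95% confidence interval -0.51 to 0.61, limma adjusted p = 0.976).

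Of the 3 peaks at major urinary protein genes, which encode lipocalins that carry pheromones, 1 passed the test, with the smallest adjusted p among the members. Mup5 1 (chr4:61820101-61831650) is the widest member at 11550 bp. It shares 332 bases with the 3′ end of *Mup5*, on the minus strand, and otherwise lies downstream of it. Its values were 8.13, 8.04 and 8.03 in the WT libraries and 7.55, 7.28 and 7.52 in the KO libraries. The KO values were all lower, and the spread within each group was small, with means of 8.07 ± 0.06 in WT and 7.45 ± 0.15 in KO (SD, n = 3). The difference was -0.62 (95% confidence interval -0.85 to -0.39, limma adjusted p = 0.000389), and the adjusted p stayed under 0.05 when any 1 of the 6 libraries was left out. It was 0.443 with 1 variance prior for all levels and 0.0613 after subtracting the input. The inputs were alike, with 153 reads in WT and 152 in KO. Of its bases, 67.6% were soft-masked, and 56.6% of its 32-base words occur once in the genome. The other words have a copy elsewhere in the genome, and what they contribute to the values was not tested.

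Most peaks next to it in the Mup cluster also had differences below 0. From Mup5 1 to the peak at *Mup21* (chr4:61820101-62143350) there are 14 peaks, 10 of them with no gene within 5 kb. At 12 the difference was below 0, and the median was -0.41. An unadjusted p under 0.05 (limma) was found at 5 of the 14 (10.6% of all peaks had one), and 1, Mup5 1, passed after adjustment. All these counts include Mup5 1, so they are not separate from its call. The peak with the largest difference (chr4:61912951-61913850, with no close gene) was at 3.77, 4.49 and 4.38 in WT and 2.32, 3.35 and 3.31 in KO. All KO values were lower, and the difference was -1.22 with an adjusted p of 0.0660 (limma). Mup21 1 differed by -0.39 (95% confidence interval -0.89 to 0.10, limma adjusted p = 0.626), and Mup6 1, which lies apart from the others on chromosome 4, by 0.09 (95% confidence interval -0.51 to 0.70, limma adjusted p = 0.955).

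**Figure D3:**
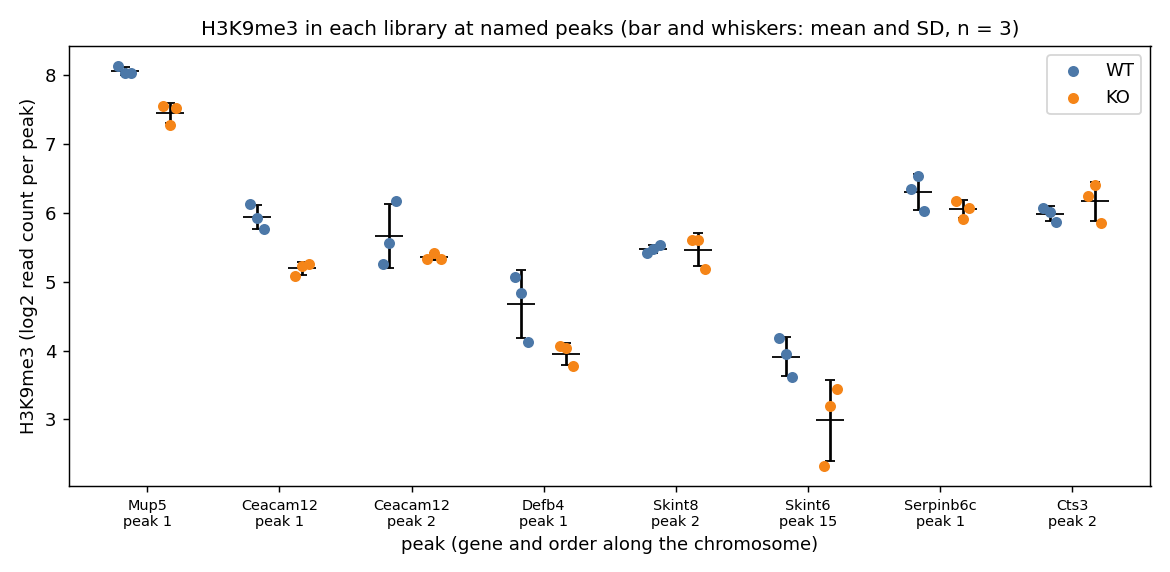
H3K9me3 in each library at 8 of the named peaks, as log2 read count per peak (vertical axis, which does not start at 0), with WT libraries in blue, KO libraries in orange, and bars and whiskers for the mean and SD of 3 libraries. WT and KO points are apart at Mup5 peak 1, Ceacam12 peak 1, Defb4 peak 1 and Skint6 peak 15, and they overlap at the other 4.

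The Skint genes encode membrane proteins of the immunoglobulin superfamily, and *Skint1* is known for the selection of gamma-delta T cells of the epidermis. Of 71 peaks at *Skint2*, *Skint3*, *Skint4*, *Skint5*, *Skint6*, *Skint8*, *Skint9* and *Skint10*, 0 passed the test, with 4 at an unadjusted p under 0.05 by limma and 0 in limma voom on recovered reads. The cluster (chr4:111916051-113964000) held 118 peaks, 71 of them members and 47 with no gene within 5 kb. That is 57.6 peaks per Mb, against 20.3 per Mb over the genome, and none of the 118 passed. Like the cathepsin region on chromosome 13, it begins and ends on a peak, which raises its density. The other regions with at least 7 members were less dense. The Ceacam and Psg region on chromosome 7 had 25.9 peaks per Mb, and the Serpin region on chromosome 12 had 16.4. *Skint5* alone, a gene of 521.6 kb, was overlapped by 29 peaks, or 5.56 per 100 kb, and *Skint6*, of 482.4 kb, by 25, or 5.18 per 100 kb. The median over the 2492 genes of at least 100 kb was 0.523 per 100 kb. By this density 82 of those genes exceeded *Skint5* and 90 exceeded *Skint6*. In *Skint10*, a gene of 63.7 kb, 7 peaks overlapped.

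Of the Skint peaks, 65 lay in introns only, 4 over exon and intron and 2 upstream of the gene. Their median width was 750 bp, below the 1050 bp of all peaks. Differences at *Skint5* were below 0 at 14 peaks and above at 15, and at *Skint6* below at 9 and above at 16, with medians of 0.00 and 0.07. The 3 peaks of *Skint4* were all below 0, from -0.69 to -0.08. Skint8 2, with the highest WT count level of the family, was at 5.42, 5.47 and 5.54 in the WT libraries and 5.60, 5.61 and 5.19 in the KO libraries, and its groups overlapped, with a difference of -0.01 (95% confidence interval -0.39 to 0.37, limma adjusted p = 0.993). Skint6 9, the widest Skint peak at 2700 bp, was at 5.38, 5.44 and 4.84 in the WT libraries and 5.14, 5.23 and 5.41 in the KO libraries, also with overlap, and differed by 0.04 (95% confidence interval -0.37 to 0.45, limma adjusted p = 0.975).

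The 4 Skint peaks with an unadjusted p under 0.05 went in both directions. Skint6 15 had the largest difference of all members, with 4.18, 3.95 and 3.61 in the WT libraries and 2.32, 3.19 and 3.44 in the KO libraries. KO replicate 1 was far below the rest, and the difference was -0.93 (95% confidence interval -1.68 to -0.18, limma adjusted p = 0.299). The other 3, named after their values were seen, were Skint4 1 at -0.53 (adjusted p = 0.28, limma), Skint10 3 at 0.91 (adjusted p = 0.318) and Skint5 20 at 0.72 (adjusted p = 0.372). At Skint5 20 the values were 3.65, 3.19 and 3.38 in the WT libraries and 4.06, 4.12 and 4.20 in the KO libraries, with every KO value above every WT value. Skint10 3 adjoins Skint10 2, where the difference was 0.64 (adjusted p = 0.599), and both lie in an intron of *Skint10*. Differences at the next peaks on either side were below 0, with confidence intervals that include 0. Skint10 1 was at -0.38 (95% confidence interval -0.79 to 0.04, limma adjusted p = 0.543). Skint10 4 was at -0.08 (95% confidence interval -0.81 to 0.65, limma adjusted p = 0.969).

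**Figure D4:**
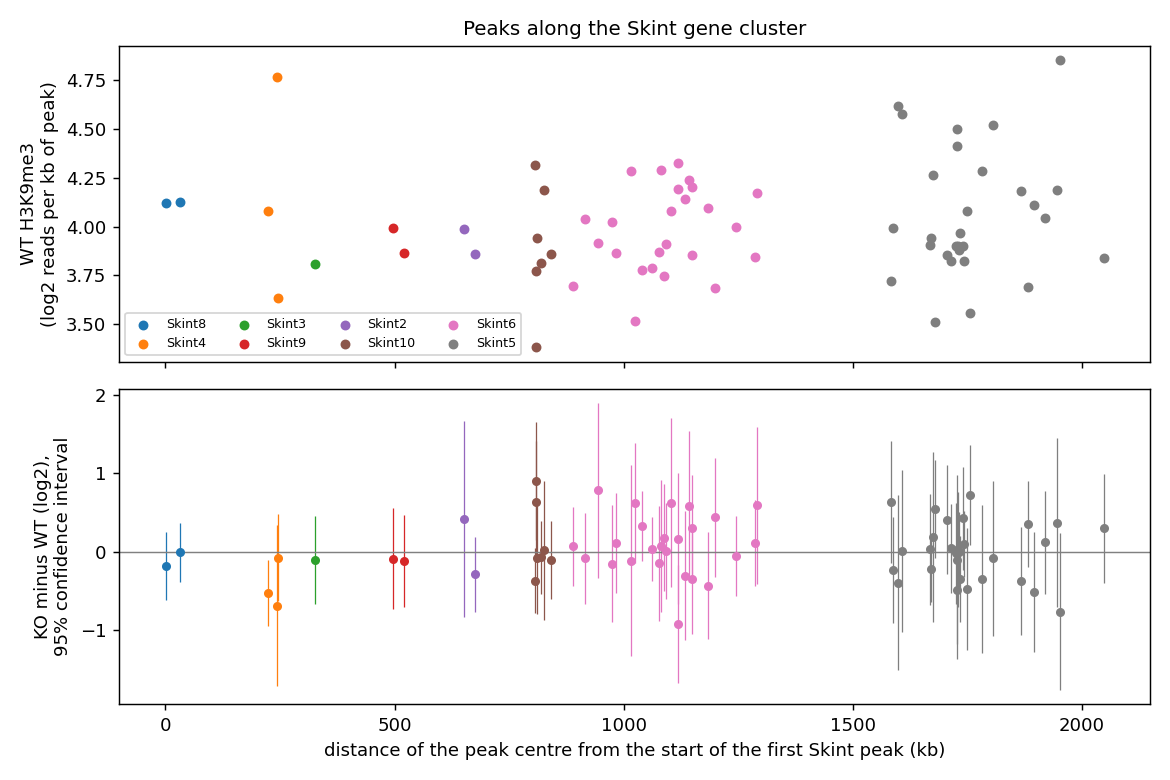
The 71 Skint peaks by distance of their centre from the start of the first one in kb (horizontal axes), colored by closest gene, with the WT level in log2 reads per kb of peak above and the log2 difference, KO minus WT, with its 95% confidence interval below. Peaks of *Skint6* and *Skint5* fill the right part of the cluster, WT levels run from 3.38 to 4.85, and differences lie on both sides of 0 except at *Skint8*, *Skint4*, *Skint3* and *Skint9*, where all points are below it.

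Members also had a position and a sequence makeup that the choice by name did not use. Loci were formed by linking members within 1 Mb, and 12 loci of at least 2 members held 126 of the 135. By GENCODE vM21, 78 members lie in introns only, 11 over exon and intron, 1 over a gene start, 16 upstream and 29 downstream of the gene. Soft-masked repeats made up a median of 50.1% of the bases of a member, against 37.8% over all peaks and 31.7% over all peaks within introns. The median was 80.1% for Ceacam, 56.2% for Skint, 46.9% for Psg, 33.9% for Defb, 30.2% for Serpin and 29.6% for Cts. More than 90% of the bases were soft-masked in 15 members (11.1%), 12 of them at Skint genes, beside 6.94% of all peaks. GC content was similar, with medians of 41.8% for the members and 41.9% for all peaks.

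**Figure D5:**
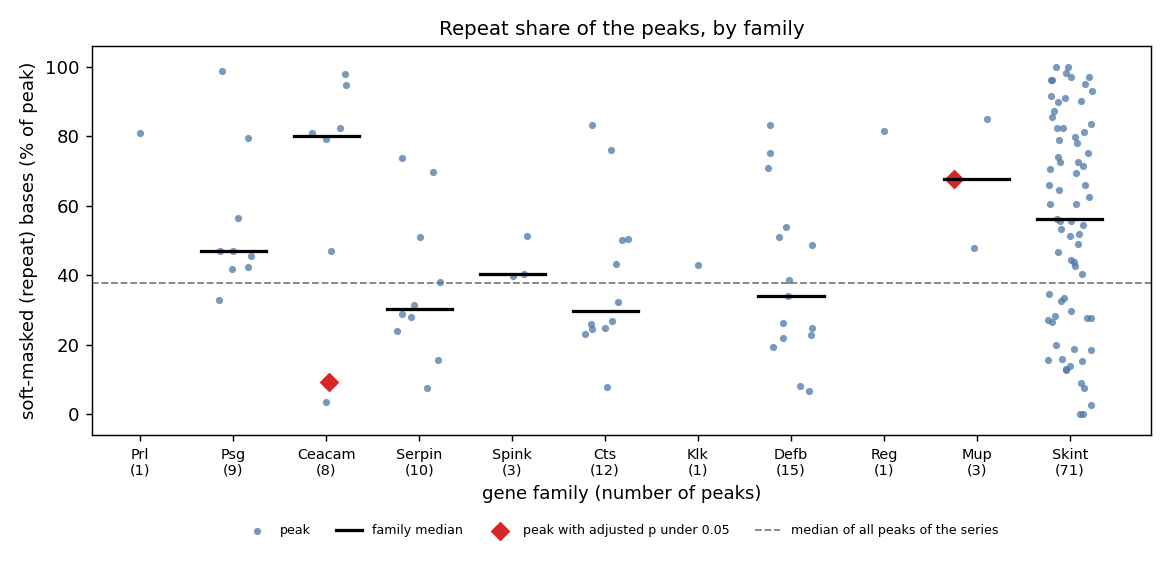
Soft-masked (repeat) bases as a percentage of each peak (vertical axis), with 1 point per peak grouped by family (1 member is not drawn), red diamonds for the peaks with an adjusted p under 0.05, black lines for family medians and a dashed line at the median of all peaks, 37.8%. Skint peaks cover the whole range from 0 to 100%, and the diamonds stand at 9.12% for Ceacam12 and 67.6% for Mup5.

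Width went with both level and precision. Over the 135 members, Pearson's r between log2 width and the WT level (log2 read count per peak) was 0.963, and between log2 width and the SE of the difference -0.959. Points share the 6 libraries and the width itself, and r is a description. The 19 members of 300 bp had a median SE of 0.517, and none of their confidence intervals stayed within 1 of 0. Of the 16 members of 2100 bp or more, with a median SE of 0.187, 15 had intervals within 1 of 0 and 2 passed the test. The share of all peaks that passed rose in the same way, from 0% at 300 bp over 0.473% at 450 to 900 bp and 1.41% at 1050 to 1950 bp to 5.49% at 2100 bp and wider.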

How the data were processed

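H3K9me3 ChIP-seq values of 3 KO, 3 WT and 2 input libraries of colon crypts were used, grouped by the genotype in the sample records. The authors trimmed reads with Trim Galore 0.6.1, mapped them to GRCm38 with Bowtie2 2.3.2 (versions per the labels), called MACS peaks once over all ChIP libraries against both inputs, and deposited log2 read counts per peak, matched across the ChIP libraries. Deposited input values are unscaled log2 read counts. A second table holds the authors' own calls (edgeR p-value, FDR and log2 fold change) and was not used.

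KO and WT were compared at all 53761 peaks with limma 3.58.1 in R 4.3.3 (variance prior following the mean, genotype as the only factor, two-sided, Benjamini-Hochberg). P-values measure the spread between libraries of a genotype, since the sources used here tie no library to an animal. The variance prior draws the spread of each peak toward that of peaks of a like level. At Ctse 1, for example, the SDs were 0.06 in WT and 0.08 in KO, and the SE of the difference was 0.28. Per-family values are descriptions. Reads were recovered from the steps of the values up to 100 reads per peak. On simulated data over 53761 peaks, 38 of 100 changes of size 1 and 79 of 100 of size 2 (log2) were recovered, with 7 false calls. The simulated noise was normal, with a spread that followed the mean level as the fit assumes. Changes were put at peaks drawn at random from all peaks. These rates check the fit under its own assumptions and are not rates for the members. Gene placement came from GENCODE M21; at all 45 members outside their gene the table's own upstream or downstream label was the opposite one. Tables and figures were made in Python 3.11.15 (pandas 2.3.3, numpy 2.4.6, matplotlib 3.10.9).

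The peaks named are those with an adjusted p under 0.05 and, in each family, the highest in WT, the widest and the one with the largest difference; the values of 1 member are not reported here. Members, gene lists and tests were chosen with earlier results of these data known. The alternatives tried were other normalizations, filters, thresholds and variance priors, subtraction of input, a replicate block, counts of genes or overlapping peaks only, and leaving out each library. Columns with no sample numbered 0. Read totals per library are not given, so depth is stated as reads per peak.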

Additional observations from a re-analysis of the deposited data

Results flagged for a closer look

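At 2 members the ratio of KO to WT input reads had a confidence interval that lay wholly above the ratio over all peaks, 0.943. Cts6 1, upstream of the placental cathepsin gene *Cts6*, had 16 input reads in KO against 6 in WT, a ratio of 2.67 (95% confidence interval 0.991 to 8.32). Reg1 1, upstream of *Reg1*, had 18 against 7, a ratio of 2.57 (1.02 to 7.28). The interval left the ratio over all peaks out, on either side, at 4 of the 135 members, which are this pair, Serpinb6c 1 (0.551, 0.331 to 0.899) and Skint6 12 (0.231, 0.0422 to 0.840). Intervals are exact, cover counting error only, and would miss the true ratio at up to 5% of peaks by design. The same count over all peaks is not given, so the members cannot be set against other peaks in this. There was 1 input library per genotype, so the differences have no replicate check.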

How the results depend on the processing

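The 2 calls among members depended on the settings. Centred libraries, a further quantile normalization, a mean log2 value of at least 4 and the replicate block each kept both Mup5 1 and Ceacam12 1. An adjusted p under 0.01 left 1 (554 over all peaks, 221 decreased), a log2 fold change of at least 1 left 0 (511 and 200), and a variance prior without a trend left 0 (127 over all peaks, 15 decreased and 112 increased). The adjusted p was then 0.443 for Mup5 1 and 0.343 for Ceacam12 1, and the cause was not tested. Limma voom on recovered reads called 1, Ceacam12 1 (573 over all peaks, 256 increased), and did not test Mup5 1 and Serpinb6c 1, which have over 100 reads in at least 1 library. Leaving out 1 library gave 1 to 2 members, all decreased, and 570 to 805 peaks in all, of which 199 to 453 were decreased. Subtracting the input of the same genotype called 31 members, 15 decreased and 16 increased (15873 over all peaks, 6512 decreased and 9361 increased). It puts the counting error of 1 input library into all 3 libraries of a genotype. It moved the median difference of the members from -0.07 to 0.069, turned Reg1 1 from 0.05 to -1.31, and gave Mup5 1 an adjusted p of 0.0613. The median WT level of a member, 3.98 in log2 reads per peak, was 4.68 for peaks with a mean of at least 4, 3.73 for peaks that overlap their gene, 4.26 with each gene counted once and 0.81 after subtracting input, and 3.95 to 4.01 when 1 library was left out.

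Libraries of the same replicate number did not deviate together over all peaks (r of -0.00, 0.02 and 0.02). With few reads per peak and matched distributions, this r could miss a pairing that acts at some peaks only. Whether the numbers pair libraries is therefore not known. A fit with the replicate block called 872 peaks and the same 2 members.

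Depth limited the narrow peaks most, and matched distributions hide any shift common to most peaks.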

Other observations

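Other genes for secreted proteins, proteases and inhibitors that the family names leave out (among them Wfdc, Prss, Tmprss and Mmp genes) held 50 peaks at 26 genes. Differences were below 0 at 24 and above at 26, with a median of 0.02. The gene with the most of these peaks was *Mmp16*. Most differences there were above 0, and most at the other genes were below 0. Of the 50 peaks, 1 passed an adjusted p under 0.05 in limma. It lies at *Prss35*, which encodes a serine protease-like protein (chr9:86755351-86758350). Its values were 5.60, 5.95 and 5.82 in the WT libraries and 5.28, 5.12 and 4.92 in the KO libraries, without overlap. The difference was -0.68, with an adjusted p of 0.0448.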
